A study of Mus musculus with 3 samples.

Results

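The comparison of AngII No AAA vs. Saline set the suprarenal aorta of mice that received angiotensin II (AngII) and had formed no dissecting abdominal aortic aneurysm (AAA) against that of mice that received saline. Its members are the 564 genes that the authors listed for this pair, out of 1238 different genes listed over the 3 comparisons of the series. The other comparisons, AngII AAA vs. Saline and AngII AAA vs. AngII No AAA, listed 715 and 600 genes. Every mouse of both cohorts was a male apoE null animal on the C57BL/6 strain and was 12 weeks old at surgery, so the deletion of apolipoprotein E, which raises plasma lipids, was carried by the controls as well. Pumps delivered AngII to the AngII No AAA cohort and saline to the Saline cohort, and the suprarenal aorta was harvested 10 days after implantation in both. The third library of the series, AngII AAA, held aneurysm tissue taken within a day of diagnosis in mice of the same genotype, strain, sex, and age at surgery.

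Each cohort was 1 library made from RNA pooled over several animals, so the differences had no replicate check and no test was run. The words higher and lower describe these 2 libraries. The values are in FPKM, which counts fragments relative to the length of the transcript and to all mapped reads of a library, and a log2 ratio is the log2 of the AngII No AAA value over the Saline value. The authors' selection for this list was an unadjusted p-value of 0.05 on this same contrast, so every listed gene was chosen for its difference, and the counts below describe that list. A gene that is not listed was not kept or not tested, and its levels can be read only where another comparison lists it. With 1 library per cohort, any difference in dissection, RNA quality, or library preparation between the pools cannot be told apart from the infusion, and the labels name no batch.

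AngII is the effector peptide of the renin-angiotensin system. It constricts arteries, raises blood pressure, and acts on smooth muscle cells and fibroblasts, which then secrete matrix, and in apoE null mice its infusion leads to leukocyte entry and, in part of the animals, to dissection of the suprarenal aorta. The suprarenal segment lies against the diaphragm and close to the kidneys, the adrenal glands, and the coeliac ganglia, which are clusters of sympathetic neurons. The aortic wall itself holds elastic layers with smooth muscle cells and an outer adventitia of fibroblasts, resident macrophages, small vessels, and nerve fibers.

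Of the 564 listed genes, 358 (63.5%, 95% Wilson interval 59.4% to 67.3%) were higher in AngII No AAA and 206 (36.5%) were lower. The interval covers counting error only, and genes are not independent. Finite ratios were found for 345 higher and 201 lower genes, with median log2 ratios of 1.44 and -1.21. More than 4-fold higher were 54 genes with a finite ratio (9.57% of all listed), and more than 4-fold lower were 19 (3.37%). The nearest genes to equal levels were Errfi1, Stx5a, and Elk3 at log2 ratios of 0.93, 0.94, and 0.95 on the higher side, and Kcnt1, 6330403K07Rik, and Reep2 at -0.93, -0.94, and -0.94 on the lower side. The median log2 ratio over all finite rows was 1.16. If that median is set to 0, a step called median centring below, the split is near even by construction (50.7% higher), 4 genes are more than 4-fold higher, and 201 are more than 4-fold lower. Centring can only turn higher genes to lower, so it is given below for sets on the higher side.

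**Figure D1:**
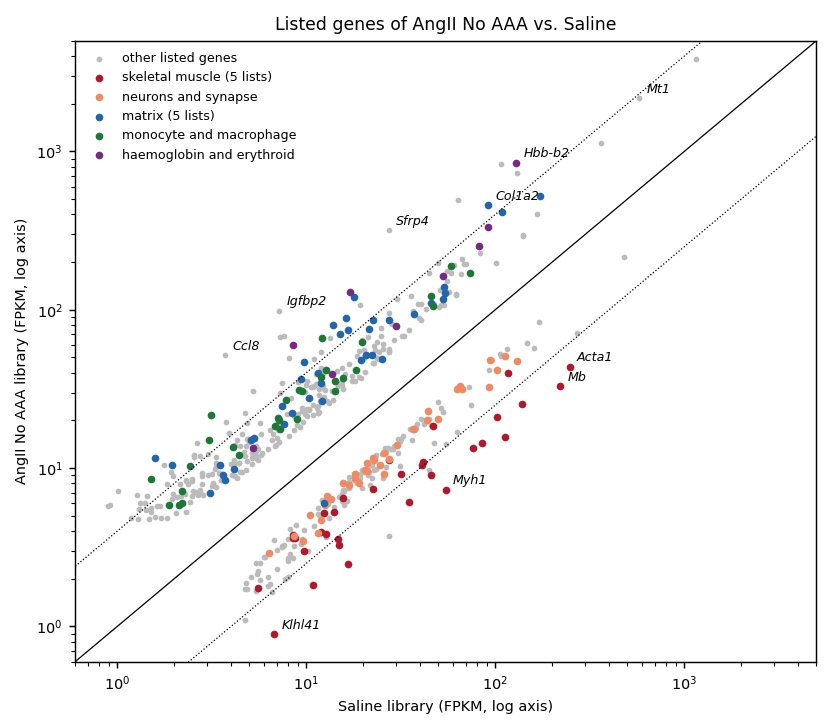
Each point is 1 listed gene with a value above 0 in both libraries, with the Saline library on the x axis and the AngII No AAA library on the y axis (FPKM, both log axes); the solid line marks equal levels and the dotted lines a 4-fold difference. Skeletal muscle genes, all 32 of them, and the 37 neuron and synapse genes lie under the solid line, and macrophage, erythroid, and all but 1 of the matrix genes lie over it; after median centring 35 of the 39 matrix genes stay on the higher side.

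Genes found in neither of the other lists made up 309 of the 564 (54.8%). Of these, 144 (46.6%, 95% Wilson interval 41.1% to 52.2%) were higher and 165 (53.4%) were lower in AngII No AAA, and after median centring 30.1% were higher. Of the 255 genes also found in another list, 214 (83.9%) were higher and 41 (16.1%) were lower. Absence from the other lists says only that the gene was not kept there, since the comparisons share libraries and were selected separately. Among single-gene entries whose higher value was 5 FPKM or more, the 10 largest differences in this set on the higher side included those of Cd83, Col1a2, Ntm, Sytl2, Gpr39, Retn, Ctgf, Mmp3, and Col14a1. On the lower side the 10 largest were those of Klhl41, Kap, Mb, Ckmt2, Cox6a2, Ttn, Acta1, Tnnt3, Myh2, and Neb. Of those lower genes all but Kap, a kidney transcript, encode components of striated muscle fibers.

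The plot of gene lists gives the same picture by function. Lists were drawn up by cell type or pathway, some genes are in more than 1 list, and 238 of the listed genes (125 higher and 113 lower) are in none. The background for every count by direction below is 63.5% higher and 36.5% lower over all listed genes. For counts of genes in no other list it is 54.8%.

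**Figure D2:**
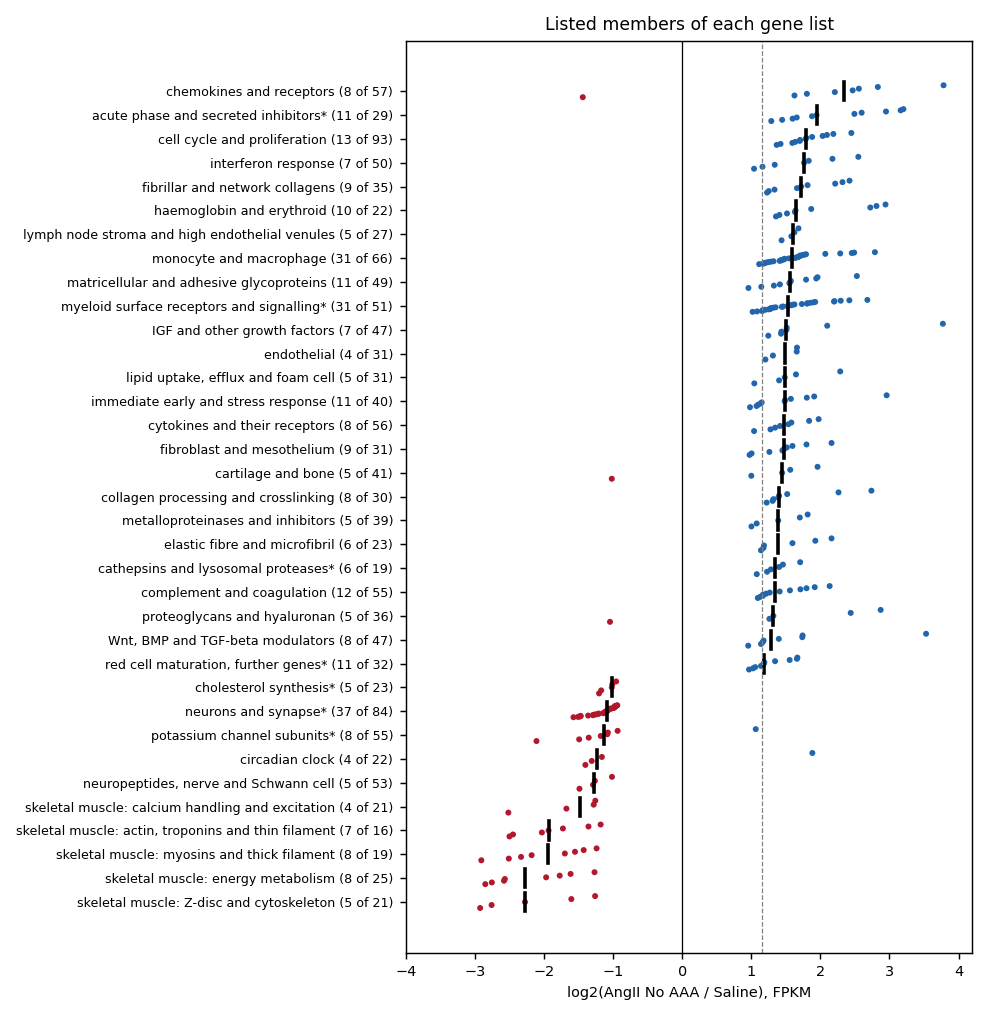
Each point is 1 listed gene of the named list (listed of all genes in that list), placed by its log2 ratio of AngII No AAA over Saline on the x axis, with black bars at the medians, blue for higher and red for lower genes, a dashed line at the median of all listed genes, and an asterisk for lists chosen after the values were seen. Immune, matrix, and proliferation lists lie to the right and muscle and nerve lists to the left; points between 0 and the dashed line turn to lower after median centring.

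Skeletal muscle genes made up 15 of the 19 genes that were more than 4-fold lower before median centring. Of 102 genes in 5 skeletal muscle lists, 32 were listed, and all 32 were lower in AngII No AAA, beside 36.5% of all listed genes. Their median log2 ratio was -1.95, their summed level was 1619 FPKM in Saline and 349 FPKM in AngII No AAA, and 19 of them were in no other list, close to the 54.8% over all listed genes. A skeletal muscle fiber contracts when calcium released from its internal store lets myosin of the thick filament pull on actin of the thin filament, and creatine kinase and mitochondria supply the energy. In bulk tissue fewer cells of a type and less RNA per cell cannot be told apart.

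Among the motor proteins, Myh1, a fast fiber myosin heavy chain, was 54.7 FPKM in Saline and 7.30 FPKM in AngII No AAA (log2 ratio -2.91). Myh4, the fastest isoform, was 45.7 and 9.08 FPKM (-2.33), and Myh2 was 14.8 and 3.28 FPKM (-2.18). The 3 genes lie next to each other in 1 cluster and have closely similar sequences, so the split of reads among them is uncertain. The giant spring protein titin (Ttn) was 34.8 FPKM in Saline and 6.12 FPKM in AngII No AAA, and the fast light chain Myl1 was 117 and 40.1 FPKM. All 8 listed thick filament genes were lower.

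On the thin filament, skeletal actin (Acta1) was 247 FPKM in Saline and 43.8 FPKM in AngII No AAA (-2.50), although its reads can be shared with other actin genes. The fast troponins, which give the filament its calcium switch, were Tnnt3 at 139 and 25.5 FPKM, Tnni2 at 41.5 and 10.9 FPKM, and Tnnc2 at 46.9 and 18.3 FPKM. Nebulin (Neb), which sets filament length, was 14.6 and 3.59 FPKM. None of the 7 listed thin filament genes was in another list. At the Z-disc, which anchors the filaments, Klhl41 had the largest difference of all lower genes (6.77 and 0.893 FPKM, -2.92), followed in the same list by Myot at 16.7 and 2.46 FPKM and Tcap at 102 and 21.0 FPKM. The alpha-actinins Actn2 and Actn3 were 12.0 and 12.4 FPKM in Saline against 3.95 and 5.18 FPKM in AngII No AAA.

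Calcium handling and energy genes followed. Atp2a1, the pump that returns calcium to the sarcoplasmic reticulum of fast fibers, was 76.1 FPKM in Saline and 13.3 FPKM in AngII No AAA (-2.52). The channel genes that couple excitation to contraction were lower too, with Cacna1s at 5.56 and 1.74 FPKM and Ryr1, the release channel, at 8.67 and 3.63 FPKM. Muscle creatine kinase (Ckm) was 113 and 15.7 FPKM (-2.85), and its mitochondrial partner Ckmt2 was 10.9 and 1.83 FPKM (-2.58). Myoglobin (Mb), the oxygen store of muscle, was 221 and 32.8 FPKM (-2.75), and Cox6a2, a muscle form of a respiratory chain subunit, was 85.5 and 14.4 FPKM (-2.57). Pygm, which breaks down glycogen, was 31.6 and 9.24 FPKM, and the glycolytic Pgam2 was 41.1 and 10.5 FPKM. Further striated muscle genes outside the lists, named after their values were seen, were Myh7 (4.81 and 1.87 FPKM), Cmya5 (13.2 and 4.86 FPKM), and Perm1 (7.46 and 3.18 FPKM).

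**Figure D3:**
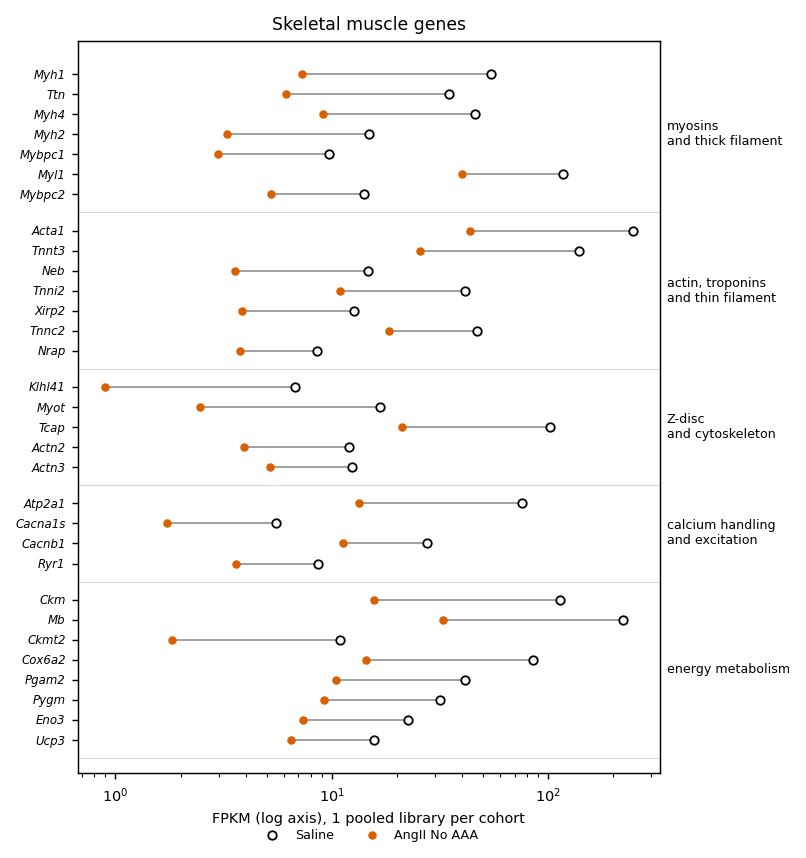
Levels of 31 of the 32 listed skeletal muscle genes are shown on a log axis in FPKM, with open circles for the Saline library and filled circles for the AngII No AAA library, grouped by role and with 1 pooled library per cohort. Every filled circle lies left of its open circle, from Klhl41 at 0.893 FPKM to Acta1 at 43.8 FPKM in AngII No AAA.

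The promoters of 2 muscle genes with large differences are shown because muscle regulatory factors are known to bind E-boxes with the letters CAGCTG and because serum response factor binds CArG boxes. Sequences are from RefSeq (GRCm38.p6), run from 250 bases before to 50 bases after the annotated start, and are given 5′ to 3′ on the strand of the gene, with the E-box and, in Acta1, the CArG box in capitals. The Acta1 window is chr8:123894726-123895025 on the minus strand and the Ckm window chr7:19410844-19411143 on the plus strand.
Acta1: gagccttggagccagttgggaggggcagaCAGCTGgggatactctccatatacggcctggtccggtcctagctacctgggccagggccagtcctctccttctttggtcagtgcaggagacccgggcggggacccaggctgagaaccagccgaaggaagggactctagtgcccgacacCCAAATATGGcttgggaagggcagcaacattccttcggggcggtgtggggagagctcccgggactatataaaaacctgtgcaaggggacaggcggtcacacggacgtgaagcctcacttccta
Ckm: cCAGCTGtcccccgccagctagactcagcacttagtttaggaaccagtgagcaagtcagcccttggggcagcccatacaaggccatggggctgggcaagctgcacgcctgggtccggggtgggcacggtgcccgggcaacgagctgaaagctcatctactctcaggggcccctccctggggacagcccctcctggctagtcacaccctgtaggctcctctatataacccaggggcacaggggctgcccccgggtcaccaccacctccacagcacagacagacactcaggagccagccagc
Both strands were searched, and CAGCTG reads the same on each. Promoter windows were found for 24 of the 32 listed skeletal muscle genes, in 27 windows, and 16 of these (59.3%) held CAGCTG, against 16.3% of all 32851 windows. The CArG box was found in 2 of the 27 and in 1.63% of all windows, and the letters TATAAA in 5 of the 27 and in 13.6% of all. These matches describe the windows, and binding was not measured.

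None of 24 smooth muscle contractile genes was listed. The labelled tissue was checked on the other lists, which were scaled separately, by a constant of 1.09 for the AngII No AAA library and for the Saline library. There, the AngII No AAA library held smooth muscle actin (Acta2) at 926 FPKM, Tagln at 904 FPKM, and smooth muscle myosin (Myh11) at 279 FPKM. Of the 24 genes, 9 could be read in the AngII No AAA library, 6 in the Saline library, and 4 in both, and all 4 were lower in AngII No AAA. Brought to the scale of AngII No AAA vs. Saline, the integrin chain Itga8 was 162 FPKM in Saline and 91.2 FPKM in AngII No AAA (log2 ratio -0.83), and Synpo2, an actin binding protein, was 93.6 and 52.5 FPKM (-0.83). Lmod1, which seeds actin filaments, was 126 and 86.9 FPKM (-0.54), and Kcnmb1, a potassium channel subunit, was 34.2 and 30.8 FPKM (-0.15). These differences are smaller than those of any listed gene, and the direction of the other smooth muscle genes was not readable. The 4 could be read only because both other lists kept them, so their shared direction does not describe the 24.

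Genes of peripheral neurons were the second set on the lower side, at smaller ratios than muscle. Of 53 neuropeptide, nerve, and Schwann cell genes, 5 were listed. Neurofilament light chain (Nefl), a structural protein of axons, was 160 FPKM in Saline and 57.1 FPKM in AngII No AAA (-1.49). Sox10, a Schwann cell transcription factor, was 36.1 and 15.0 FPKM (-1.26), myelin basic protein (Mbp) was 107 and 52.7 FPKM (-1.02), and chromogranin A (Chga), a protein of secretory granules, was 45.9 and 18.8 FPKM (-1.29). The peptide hormone gene Sst went the other way and was listed at 0 in Saline and 5.30 FPKM in AngII No AAA. A longer list of 84 neuron and synapse genes was drawn up after the values were seen, so its count only describes what was there: 37 were listed, all 37 were lower, the median log2 ratio was -1.09, and 34 were in no other list (54.8% of all listed genes were). Their summed level was 1364 FPKM in Saline and 610 FPKM in AngII No AAA.

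Within that list, Gfra3, a co-receptor for artemin, had the largest difference, at 11.5 FPKM in Saline and 3.87 FPKM in AngII No AAA (-1.57), and Tlx2, a transcription factor of neural crest derivatives, was 25.6 and 9.16 FPKM. Genes of vesicle release were Stx1a at 24.4 and 10.5 FPKM, Cplx1 at 112 and 51.3 FPKM, and Sv2a at 27.3 and 11.3 FPKM. Transmitter genes were the dopamine receptor Drd2 at 49.9 and 20.5 FPKM, acetylcholinesterase (Ache) at 64.8 and 32.8 FPKM, and Gch1, which makes a cofactor of tyrosine hydroxylase, at 20.4 and 9.67 FPKM. Potassium channel subunits, another list drawn up after the values were seen, held 8 listed genes of 55, of which 7 were lower. Kcnd2 was 4.73 FPKM in Saline and 1.10 FPKM in AngII No AAA (-2.11) and Kcnq3 was 29.7 and 14.0 FPKM, whereas Kcnj15 was higher at 5.75 and 12.0 FPKM and turned to lower after median centring. Other genes on the lower side included Dhh, a Schwann cell signal, at 16.5 and 7.47 FPKM, and Tppp3, at 481 and 216 FPKM, both named after their values were seen.

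Cholesterol synthesis genes, also grouped after the values were seen, were lower in all 5 listed cases of 23, and none of the 5 was in another list. Sqle, which catalyzes the first oxygenation step toward sterols, was 30.6 FPKM in Saline and 15.2 FPKM in AngII No AAA (-1.01). Mvd was 16.8 and 7.46 FPKM, Msmo1 was 38.7 and 19.1 FPKM, Hsd17b7 was 8.66 and 3.76 FPKM, and Dhcr7, which completes cholesterol, was 23.4 and 12.1 FPKM. The difference in this set was close to the smallest that the list contains, at log2 ratios from -1.20 to -0.95.

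**Figure D4:**
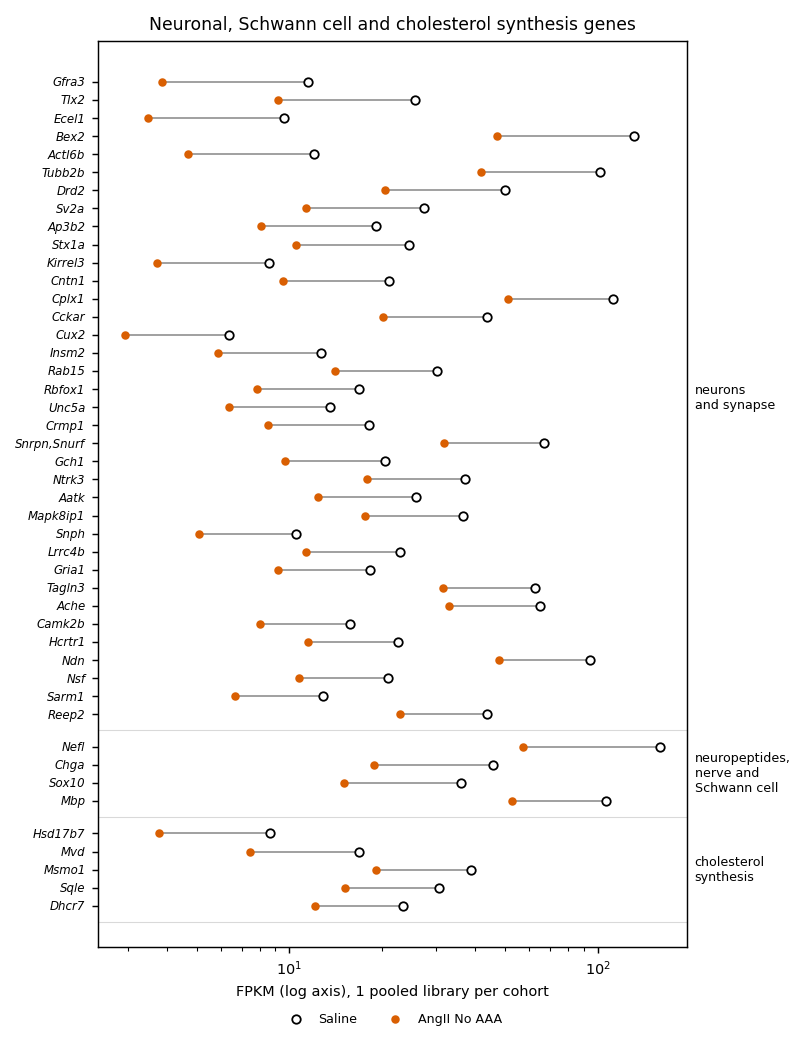
Levels of listed neuron and synapse, nerve and Schwann cell, and cholesterol synthesis genes are shown on a log axis in FPKM, with open circles for the Saline library and filled circles for the AngII No AAA library. Every gene shown was lower in AngII No AAA, with Nefl the highest of them in Saline (160 FPKM); Sst, listed at 0 in Saline, cannot be drawn on a log axis.

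Kidney tubule transcripts were lower in the cases listed. Of 49 liver, kidney, pancreas, and lung genes, 2 were listed. Kap, an abundant transcript of kidney proximal tubule cells, was 27.5 FPKM in Saline and 3.73 FPKM in AngII No AAA (-2.88), and the tubular phosphate transporter Slc34a1 was 8.06 and 2.06 FPKM (-1.97). The vitamin D binding protein gene Gc, known from liver, was 44.5 and 9.75 FPKM (-2.19), whereas other liver-type genes such as Itih4 (30.4 and 117 FPKM, 1.94) and the lung gene Cyp2f2 (11.02 and 48.8 FPKM, 2.15) were higher. None of 18 adrenal cortex genes was listed. Kap and Slc34a1 had the same direction as the muscle and nerve sets, and their part in those results was not tested.

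Matrix genes were almost all on the higher side. The aortic matrix joins collagen, which bears load, with elastic fibers, which recoil, and with proteoglycans and matricellular proteins, which hold water and pass signals to cells. Of 173 genes in 5 lists, 39 were listed, of which 38 were higher and 1, the proteoglycan Gpc1 (12.4 FPKM in Saline and 6.00 FPKM in AngII No AAA), was lower. The background on the higher side was 63.5% of all listed genes. The median log2 ratio was 1.55, the summed level was 988 FPKM in Saline and 3246 FPKM in AngII No AAA, and 22 genes were in no other list, near the 54.8% of all listed genes. After median centring 35 were higher and 4 lower.

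Collagens were higher in all 9 listed cases of 35, also after median centring, with a median log2 ratio of 1.72. Col1a2, a chain of type I collagen, the main tensile fiber of arteries, was 91.3 FPKM in Saline and 456 FPKM in AngII No AAA (2.32) and was in no other list. Type V chains, which start fibril assembly, were Col5a2 at 15.1 and 70.0 FPKM (2.21) and Col5a1 at 27.3 and 86.3 FPKM (1.66). The fibril-associated Col12a1 had the largest ratio at 1.96 and 10.5 FPKM (2.42), and Col14a1 was 21.5 and 75.5 FPKM (1.81). Type VI chains, which make beaded filaments around cells, were Col6a1 at 54.3 and 127 FPKM and Col6a3 at 37.3 and 94.2 FPKM. Col8a1, a short-chain network collagen of vessels, was 7.47 and 24.7 FPKM.

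Enzymes that process and crosslink collagen were higher in all 8 listed cases of 30, also after median centring. Lysyl oxidase (Lox), which crosslinks collagen and elastin, was 17.9 FPKM in Saline and 120 FPKM in AngII No AAA (2.74), and Loxl2 was 9.77 and 46.9 FPKM (2.26). Plod2, which hydroxylates collagen lysines, was 12.0 and 34.5 FPKM. Bmp1 and its enhancer Pcolce, which trim the C-propeptide, were 19.4 and 48.5 FPKM and 53.4 and 140 FPKM, and Adamts2, which trims the N-propeptide, was 22.3 and 52.0 FPKM. Microfibril genes were higher in 6 listed cases of 23 (5 after median centring, where Ltbp2 at 12.1 and 26.6 FPKM turned to lower). Fibrillin-1 (Fbn1), the scaffold of elastic fibers, was 22.5 and 85.6 FPKM (1.93), Mfap5 was 16.6 and 74.2 FPKM (2.16), and Mfap4 was 172 and 521 FPKM (1.60).

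Proteoglycan genes had 5 listed members of 36, with Esm1, an endothelial proteoglycan, at 1.59 and 11.6 FPKM (2.87), Prg4, a lubricant, at 16.3 and 88.3 FPKM (2.44), Vcan at 7.61 and 19.0 FPKM, and Lum, which spaces collagen fibrils, at 45.8 and 110 FPKM. Matricellular genes, whose products signal between matrix and cell, were higher in 11 listed cases of 49 (9 after median centring). Thbs1, which activates latent TGF-beta, was 13.9 FPKM in Saline and 80.2 FPKM in AngII No AAA (2.53). Ctgf, a growth factor of the CCN family, was 109 and 417 FPKM (1.94), its relatives Wisp1 and Wisp2 were 3.52 and 10.5 FPKM and 11.6 and 40.1 FPKM, and osteopontin (Spp1) was 9.37 and 36.4 FPKM (1.96). Tenascin-C (Tnc) was 20.8 and 52.1 FPKM. Of 39 metalloproteinase and inhibitor genes, 5 were listed, all higher, with 3 on that side after median centring. Mmp3, which cleaves proteoglycans and activates other proteases, was 10.1 and 35.5 FPKM (1.82), membrane-bound Mmp14 was 19.7 and 64.0 FPKM (1.70), and Mmp2, the gelatinase that Mmp14 activates, was 23.7 and 62.1 FPKM (1.39). The other listed members were Mmp23 at 23.6 and 49.9 FPKM and Adamts12 at 4.82 and 9.67 FPKM, and these turned to lower after median centring.

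Secreted modulators of growth factor signals held the second and the third largest finite ratio of the comparison. Igfbp2 (chr1:72871053-72899045, mm9), which binds insulin-like growth factors, was 7.20 FPKM in Saline and 98.3 FPKM in AngII No AAA (3.77). Its ligand Igf1 was 40.3 and 109 FPKM (1.43), and Igfbp3 was 3.52 and 8.36 FPKM (1.25). Sfrp4 (chr13:19715043-19724692, mm9), a secreted Wnt antagonist, was 27.4 and 317 FPKM (3.53), and Sfrp2 was 39.6 and 88.8 FPKM (1.16). BMP antagonists and binders were Bmper at 2.38 and 7.98 FPKM and Chrdl1 at 12.1 and 31.9 FPKM. The ligand Tgfb2 was 11.5 and 22.3 FPKM (0.96). All 8 listed Wnt, BMP, and TGF-beta modulators of 47 were higher, with 6 on that side after median centring, and all 7 listed IGF and other growth factors of 47 were higher before and after it. These included Hgf at 1.40 and 5.98 FPKM (2.10) and Figf, a lymphatic growth factor, at 12.2 and 33.0 FPKM. None of 36 genes of the renin-angiotensin, endothelin, and natriuretic system was listed.

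**Figure D5:**
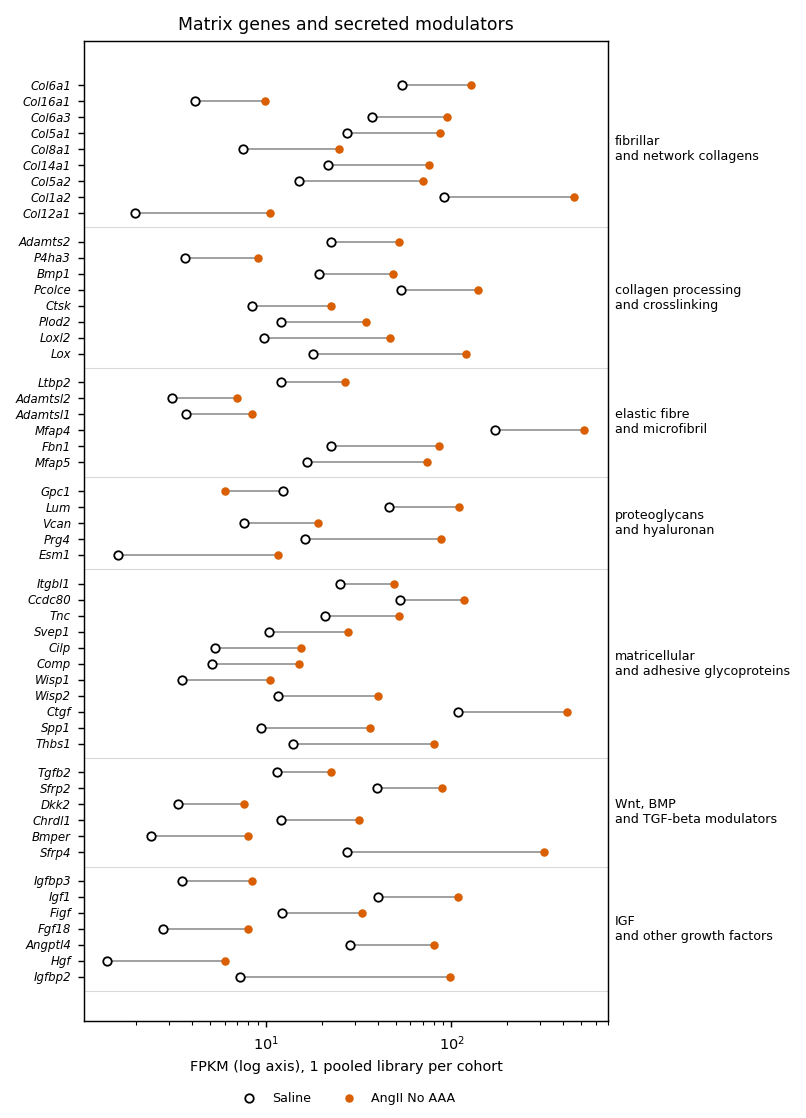
Levels of listed matrix genes and secreted modulators are shown on a log axis in FPKM, with open circles for the Saline library and filled circles for the AngII No AAA library, grouped by role. All genes shown but Gpc1 were higher in AngII No AAA, and the widest gaps are those of Igfbp2 (7.20 to 98.3 FPKM) and Sfrp4 (27.4 to 317 FPKM); the narrowest, such as Tgfb2 and Itgbl1, turned to lower after median centring.

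Fibroblast genes were on the higher side as well. Lum, Mfap4, and Mfap5 among them are also counted in the matrix lists, so the sets are not separate. Of 31 fibroblast and mesothelium genes, 9 were listed and all 9 were higher (7 after median centring), with a summed level of 581 FPKM in Saline and 1588 FPKM in AngII No AAA. Cd248, a surface marker of activated stromal cells, was 27.4 and 95.3 FPKM (1.80), Pi16, a marker of adventitial fibroblasts, was 69.8 and 194 FPKM (1.48), and Dpt was 55.4 and 152 FPKM (1.45). Ly6a, which marks adventitial progenitor cells and some endothelium, was 68.3 and 195 FPKM (1.51). The part of fibroblast number in the matrix values was not tested.

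Macrophages clear debris and lipid, and the adventitia holds resident cells to which blood monocytes add. Of 66 monocyte and macrophage genes, 31 were listed and all 31 were higher in AngII No AAA (30 after median centring), beside 63.5% of all listed genes. Their median log2 ratio was 1.59 and their summed level was 433 FPKM in Saline and 1237 FPKM in AngII No AAA. Only Folr2 and Retnla among them were in no other list, beside 54.8% of all listed genes. The lysosomal marker Cd68 was 19.6 and 62.7 FPKM (1.68), Adgre1, which encodes F4/80, was 2.21 and 7.12 FPKM (1.69), the mannose receptor Mrc1 was 7.27 and 17.7 FPKM (1.29), and Lyz2 was 73.2 and 171 FPKM (1.22). The chains of C1q, the starter of classical complement, were C1qa at 46.8 and 105 FPKM, C1qb at 58.0 and 190 FPKM, and C1qc at 45.7 and 122 FPKM. Ms4a6c (3.12 and 21.6 FPKM, 2.79) and Ms4a7 (1.51 and 8.50 FPKM, 2.49) had the largest finite ratios, beside heme oxygenase Hmox1 at 12.1 and 66.4 FPKM (2.45) and the lipid receptor Trem2 at 3.06 and 15.0 FPKM (2.29). A second list of 51 myeloid receptor and signaling genes, drawn up after the values were seen, held 31 listed genes, all higher (28 after median centring), of which Cd83, a marker of activated dendritic cells, was in no other list (0.895 and 5.73 FPKM, 2.68).

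Other leukocyte markers were few. None of 40 T, NK, and innate lymphoid cell genes and none of 23 mast cell and eosinophil genes was listed, and of 37 B and plasma cell genes Blnk was listed (0.911 FPKM in Saline and 5.83 FPKM in AngII No AAA). The 2 listed genes of 28 in the neutrophil list, Lcn2 (7.28 and 66.9 FPKM, 3.20) and Hp (131 and 735 FPKM, 2.49), are also acute phase genes of other cell types, and the granule and surface markers S100a8, S100a9, Ly6g, and Camp were not listed. The antigen presentation genes Cd74 (140 and 298 FPKM) and H2-Ab1 (62.0 and 126 FPKM) were higher and turned to lower after median centring. Lymph node and high endothelial venule genes were listed in 5 cases of 27, all higher, with Glycam1, a ligand for lymphocyte homing, at 0 in Saline and 7.91 FPKM in AngII No AAA, and the B cell chemokine Cxcl13 at 9.86 and 30.4 FPKM.

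Of 57 chemokine and receptor genes, 7 were higher and 1 lower, with the same split after median centring. Ccl8, a monocyte attractant, had the largest ratio of the comparison at 3.74 FPKM in Saline and 51.4 FPKM in AngII No AAA (3.78). Ccl6 was 19.3 and 107 FPKM (2.47) and its neighbor Ccl9 was 7.46 and 34.5 FPKM (2.21), and their receptor Ccr1 was 1.01 and 7.20 FPKM (2.83). Cxcl14 was 5.23 and 30.8 FPKM (2.56) and Cxcl16 was 4.29 and 15.0 FPKM. The lower gene was Ppbp, a chemokine stored in platelets, at 15.9 and 5.87 FPKM (-1.44). Cytokine and receptor genes were higher in 8 listed cases of 56 (7 after median centring), with the shared receptor chain Il2rg at 4.88 and 19.2 FPKM and the alarmin Il33 at 10.9 and 32.5 FPKM. Interferon response genes were higher in 7 listed cases of 50 (6 after median centring), with the antiviral Rsad2 at 12.0 and 54.1 FPKM (2.18) and Ifi205 at 1.78 and 10.4 FPKM (2.55).

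Complement and coagulation genes were higher in 12 listed cases of 55 (10 after median centring). The urokinase receptor Plaur was 2.74 FPKM in Saline and 12.0 FPKM in AngII No AAA (2.13). Properdin (Cfp), which stabilizes the alternative convertase, was 11.3 and 39.2 FPKM. Among 29 acute phase and secreted inhibitor genes, grouped after the values were seen, 11 were listed and all were higher, also after median centring, with a median log2 ratio of 1.94. The protease inhibitor Serpina3n was 63.7 and 492 FPKM (2.95), Wfdc21 was 7.63 and 68.3 FPKM (3.16), and Wfdc17 was 8.14 and 49.3 FPKM (2.60). Endothelial genes were higher in 4 listed cases of 31, before and after median centring. Lrg1, a secreted angiogenic glycoprotein, was 55.4 and 175 FPKM (1.66), the apelin receptor Aplnr was 2.81 and 8.90 FPKM (1.66), and the leukocyte adhesion molecule Vcam1 was 10.8 and 24.9 FPKM (1.20). The endothelial markers Pecam1, Cdh5, Kdr, and Vwf were not listed. Lipid uptake and foam cell genes were higher in 5 listed cases of 31 (4 after median centring, where Apoc1 at 50.4 and 104 FPKM turned to lower). Of 48 adipocyte genes Retn alone was listed, at 49.99 and 198 FPKM (1.98), and cathepsins and lysosomal proteases, grouped after the values were seen, were higher in 6 cases of 19 (5 after median centring).

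Proliferation genes were higher in 13 listed cases of 93, before and after median centring, with a median log2 ratio of 1.79. Most levels were low, with Mki67, which marks cycling cells, at 2.65 FPKM in Saline and 14.5 FPKM in AngII No AAA (2.45), the mitotic kinase Plk1 at 1.30 and 5.55 FPKM (2.09), the centromere histone Cenpa at 1.97 and 8.97 FPKM (2.19), and Top2a at 1.46 and 4.78 FPKM. The 13 genes include Cdkn1a, an inhibitor of the cell cycle, at 16.9 and 45.4 FPKM (1.42), and Ube2c at 11.3 and 34.1 FPKM (1.59). Of 65 replication-type histone genes, 3 were listed and higher, Hist1h2ak at 13.4 and 65.9 FPKM, Hist1h2ab at 4.73 and 22.4 FPKM, and Hist1h2bn at 0 and 5.26 FPKM, with reads that near-identical histone copies can share. In the cartilage and bone list 5 genes of 41 were listed, 4 higher and 1 lower (3 and 2 after median centring), with Runx1, a transcription factor of blood and bone, at 4.66 and 12.7 FPKM, and Cytl1 lower at 171 and 84.2 FPKM.

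Metallothioneins stood at the top of the stress genes. Of 40 immediate early and stress genes, 11 were listed and higher (6 after median centring). Mt1 and Mt2, small proteins that bind zinc and copper and that glucocorticoids, metals, and inflammation are known to induce, lie next to each other. Mt1 was 579 FPKM in Saline and 2175 FPKM in AngII No AAA (1.91), and Mt2 was 107 and 835 FPKM (2.96). Immediate early factors were Fos at 11.9 and 35.3 FPKM (1.57), Nr4a3 at 7.79 and 27.2 FPKM (1.80), and Junb at 29.1 and 64.5 FPKM (1.15, turned to lower after median centring). The feedback inhibitor Socs3 was 7.89 and 22.1 FPKM (1.49). The promoters of the metallothionein pair are shown from RefSeq (GRCm38.p6), chr8:94178839-94179138 for Mt1 and chr8:94172368-94172667 for Mt2, both on the plus strand and 5′ to 3′, with each match to the core of the metal response element (TGCACNC or TGCGCNC, either strand) in capitals.
Mt1: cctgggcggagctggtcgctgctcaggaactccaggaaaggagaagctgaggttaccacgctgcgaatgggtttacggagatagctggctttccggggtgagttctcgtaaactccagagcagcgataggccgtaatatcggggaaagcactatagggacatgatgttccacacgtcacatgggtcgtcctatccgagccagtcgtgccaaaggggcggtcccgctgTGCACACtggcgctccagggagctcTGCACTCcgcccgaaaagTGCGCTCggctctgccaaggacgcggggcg
Mt2: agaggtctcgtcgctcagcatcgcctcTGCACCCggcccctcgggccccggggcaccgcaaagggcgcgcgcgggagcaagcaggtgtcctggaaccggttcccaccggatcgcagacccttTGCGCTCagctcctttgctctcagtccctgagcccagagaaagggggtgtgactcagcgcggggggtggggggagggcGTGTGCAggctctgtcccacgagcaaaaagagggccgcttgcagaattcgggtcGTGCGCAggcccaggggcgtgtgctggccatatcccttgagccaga
The core was found 3 times in the Mt1 window and 4 times in the Mt2 window. At least 1 match was held by 25.7% of all 32851 windows, 3 or more by 1.97%, and 4 or more by 0.517%. The matches do not overlap each other in these windows, and whether any was bound was not measured.

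Clock output genes were listed in 4 cases of 22. Dbp was 93.0 FPKM in Saline and 41.6 FPKM in AngII No AAA (-1.16), Hlf was 19.6 and 7.44 FPKM (-1.40), and the repressor Bhlhe41 was 15.4 and 6.21 FPKM (-1.31). Nfil3, which opposes Dbp and Hlf at the same sites, was higher at 2.16 and 7.96 FPKM (1.88). Nfil3 was still higher after median centring.

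Red cell transcripts were higher in AngII No AAA. The erythroid list had 9 listed rows, all higher before and after median centring, with a summed level of 429 FPKM in Saline and 1923 FPKM in AngII No AAA. Hbb-b2 (chr7:110961037-110962437, mm9), a beta globin, was 129 and 850 FPKM (2.72). Alpha globin was listed in 2 rows (chr11:32183671-32184493 and chr11:32196488-32197310, mm9), both named for Hba-a1 and Hba-a2, at 8.48 and 59.6 FPKM (2.81) and at 17.0 and 130 FPKM (2.94), and the near-identical copies share reads. Alas2, which starts heme synthesis in erythroid cells, was 82.0 and 254 FPKM (1.63), and Bpgm was 52.6 and 164 FPKM. Further red cell genes, listed after the values were seen, were higher in 11 cases of 32 (7 after median centring), with the mitochondrial iron carrier Slc25a37 at 60.5 and 192 FPKM and ferrochelatase (Fech) at 56.6 and 129 FPKM. Transcripts known from platelets, picked out after their values were seen, were lower, with Ppbp as above, Tubb1 at 14.1 and 5.65 FPKM, and Nrgn at 47.3 and 14.4 FPKM. The part of blood cells in the other results was not tested.

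Genes listed at 0 in 1 library numbered 13 in Saline and 5 in AngII No AAA. FPKM gives no count behind a 0, which can also be a failed estimate, and no fold is given. The highest on the AngII No AAA side were Mir8117 (12.7 FPKM), Gm4832 (9.34 FPKM), Glycam1 (7.91 FPKM), BC061237 (7.06 FPKM), and Mettl21b (6.48 FPKM). Sst, Hist1h2bn, 1190002F15Rik, Hcst, 2310001H17Rik, 1700024P04Rik, Tlr8, and 1700064J06Rik lay between 4.70 and 5.30 FPKM. On the Saline side were Mir466k (11.7 FPKM), Ly6g6d (6.31 FPKM), Rprl1 (6.02 FPKM), Svs4 (5.81 FPKM), and 1700092M07Rik (5.03 FPKM). The mature sequences of the 2 microRNA genes are shown with the seed, bases 2 to 8, in capitals, from RefSeq (GRCm38.p6), because these are the highest values on each side.
mmu-miR-8117: gCUCGUGUggaacagaagggg
mmu-miR-466k: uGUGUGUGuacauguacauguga
Their seeds differ. The libraries were made from total RNA and the rows cover the hairpin genes, so the mature microRNAs were not measured. Other short RNA rows were Snora81 at 1159 FPKM in Saline and 3846 FPKM in AngII No AAA and Scarna13 at 269 and 71.4 FPKM, whose FPKM depends strongly on the length assumed.

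Genes outside the lists, named after their values were seen, added to these sets. On the higher side were proteins of the secretory route, with the ribosome receptor Rrbp1 at 51.3 FPKM in Saline and 133 FPKM in AngII No AAA (1.38), the proline hydroxylase P3h1 at 5.55 and 11.3 FPKM, and Creb3l1, a transcription factor that responds to secretory load, at 22.9 and 46.3 FPKM; the last 2 turned to lower after median centring. Cell surface and motility genes were the fibronectin receptor chain Itga5 at 22.7 and 58.8 FPKM (1.37), tropomyosin Tpm4 at 36.9 and 97.9 FPKM (1.41), and S100a4 at 24.9 and 76.3 FPKM (1.62). Snai1, a transcription factor of mesenchymal cells, was 3.91 and 16.6 FPKM (2.08). Ribosomal protein genes were higher in all 4 listed cases, with 2 higher and 2 lower after median centring, when Rps20 (140 and 293 FPKM, 1.07) and Rps14 (25.6 and 56.9 FPKM, 1.15) turned. Mitochondrial genes were found on both sides, with the respiratory subunit Uqcrfs1 lower at 93.8 and 48.0 FPKM (-0.97) and Idh2 lower at 31.2 and 14.9 FPKM (-1.06), and the uncoupling protein Ucp2 higher at 83.005 and 227 FPKM (1.45).

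Listed genes that neighbor each other within 50 kb formed 39 pairs, of which 26 had the same direction and the others opposite ones. Of all listed genes 63.5% were higher and 36.5% lower, so many pairs would share a direction without being neighbors. The share among other pairs was not computed, so the count is no result about neighbors. Some pairs are copies of a gene family that can share reads, such as the alpha globin rows. Same-direction pairs included Tnni2 with Tnnt3, Cfb with C2, and Serpina3m with Serpina3n. Opposite pairs included the uncoupling proteins Ucp3 (15.6 FPKM in Saline and 6.48 FPKM in AngII No AAA), a muscle gene, and Ucp2 (83.005 and 227 FPKM), a gene of many leukocytes, and the pair of Tnnc2, lower, and Ube2c, a mitotic gene, at 11.3 and 34.1 FPKM.

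The AngII AAA library was read side by side for members found in its own lists, 235 in AngII AAA vs. Saline and 103 in AngII AAA vs. AngII No AAA. These comparisons share libraries with AngII No AAA vs. Saline, each was scaled separately, and values are given from each comparison's own list. Lox was 16.4 FPKM in Saline and 193 FPKM in AngII AAA (log2 ratio 3.56, against 2.74 for AngII No AAA). Cd68 was 17.97 and 279 FPKM (3.95, against 1.68), and Hmox1 was 11.1 and 1050 FPKM, so that these macrophage genes stood further from Saline in AngII AAA. Muscle genes were closer, with Myh1 at 50.1 and 11.4 FPKM (-2.13, against -2.91) and Ckm at 103 and 24.1 FPKM. Most of the 103 genes had the same direction in AngII No AAA vs. Saline and in AngII AAA vs. AngII No AAA. Of the others, 14 were higher in AngII No AAA than in Saline and lower in AngII AAA than in AngII No AAA. Igfbp2 was 89.9 FPKM in AngII No AAA and 14.4 FPKM in AngII AAA (-2.64), Sfrp4 was 289 and 87.8 FPKM (-1.72), Mfap4 was 476 and 104 FPKM (-2.20), and the fibroblast gene Pi16 was 177 and 46.9 FPKM (-1.92). Cyp2f2, a cytochrome of airway club cells, was 44.6 and 15.0 FPKM. Sfrp4 was still higher in AngII AAA than in Saline, at 25.1 FPKM in Saline and 90.8 FPKM in AngII AAA (1.85). No other gene of the 14 was listed in AngII AAA vs. Saline. In the opposite way 9 genes were lower in AngII No AAA than in Saline and higher in AngII AAA than in AngII No AAA. Of these, Ppbp was 5.37 and 142 FPKM (4.73), Nrgn was 13.1 and 171 FPKM (3.70), Tubb1 was 5.17 and 33.5 FPKM (2.70), and Chga was 17.2 and 46.6 FPKM (1.44). Because the AngII No AAA library enters both comparisons, a deviation of that library alone gives the same pattern, and this was not tested. AngII AAA tissue was taken within a day of diagnosis and AngII No AAA tissue after 10 days. Time of infusion therefore cannot be told apart from aneurysm in these values.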

How the data were processed

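RNA-seq was analyzed for the suprarenal libraries of the AngII No AAA and Saline cohorts, 1 pooled library each, with the AngII AAA library read side by side. Per the submitters' processing notes, the authors used FastQC for read quality, HISAT2 for alignment, and Cufflinks with Cuffdiff for levels, with mm9 as the genome build. Versions and the annotation are not given in the sources used here. The authors deposited FPKM values for both libraries of each comparison, from a separate run per comparison, with only genes under an unadjusted p-value of 0.05 kept, as the file name states. The authors' fold changes, test statistics, p-values, adjusted p-values, and significance calls are also deposited and were not used.

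The log2 ratio was recomputed from FPKM with no pseudocount, and no test was run. A test could not be made with 1 library per cohort, and the depth behind a value could not be read from FPKM, so the precision of single values is unknown. Rows shared by 2 lists differed by a constant of 1.09 in the AngII No AAA library and in the Saline library. No constant was computed for the AngII AAA library. The 95% Wilson intervals used scipy. Gene lists were counted by direction. The members, the 39 lists, and the alternatives were chosen with earlier results of these data known, and 7 further lists were added after the values of the members were seen.

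Genes were named by rule: the 15 largest finite ratios in each direction among single-gene rows that reached 1 FPKM in either library, every row at 0 in 1 library, the 10 largest in each direction that reached 5 FPKM and were in no other list, all listed members of lists with up to 6, otherwise those with the largest ratio or highest FPKM, and the 3 rows nearest equal levels in each direction. Genes that are not reported here were left out of the text and the plots. Further genes are named as examples of a role, chosen with values known. Coordinates in mm9 are as deposited, and sequences come from RefSeq (GRCm38.p6) by gene symbol. Python 3.11.15, pandas 2.3.3, numpy 2.4.6, scipy 1.17.1, and matplotlib 3.10.9 were used.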

Additional observations from a re-analysis of the deposited data

How the results depend on the processing

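No paired analysis was possible because each cohort had 1 library, and for the same reason no replicate could be left out. Of 74 values recomputed under the alternatives, 56 moved by less than their interval or by less than 1.5 times and 18 moved by more. Setting the median log2 ratio to 0 (a shift of 1.16) gave 50.7% of genes higher, a split near even by construction, 30.1% higher among those in no other list, 4 genes more than 4-fold higher, and 201 more than 4-fold lower. The median was taken over selected genes, and it is not known to be the true center. A threshold of 3-fold gave 134 higher and 43 lower genes, and 8-fold gave 5 and 0. Computing the ratio through the AngII AAA library was possible for only 83 genes, those in both other lists, and its smaller counts follow from that: 78 higher, 5 lower, 94.0% higher, 20 and 0 more than 4-fold higher and lower, 1 and 0 listed at 0 in Saline and in AngII No AAA, 0 skeletal muscle genes lower, 4 matrix genes higher, and 20 macrophage genes higher. This route gave no value for genes in no other list. For the 82 finite ratios it differed from the direct ratio by at most 0.0455 on the log2 scale. The AngII AAA value cancels in this route, which leaves the same AngII No AAA and Saline libraries up to scaling. The closeness was therefore fixed in advance and is no independent check. Filters at 1 and 5 FPKM, a pseudocount of 1, and single-gene rows only left all 12 values within those limits.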
